A study of Homo sapiens with 12 samples.

Results

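Transcript levels of 9 enzymes that build pyrimidine nucleotides and DNA precursors were followed in SKOV3 and SKOV3/DDP cells with and without paeonol (PAE). The enzymes were CAD, DHODH, UMPS, CTPS1, TYMS, RRM1, RRM2, TK1 and DUT, chosen by gene symbol from the 46350 named genes counted in each library. All 9 were found, and all 9 had enough counts to be tested in every comparison. The data were 12 bulk RNA sequencing libraries in 4 groups of 3: untreated SKOV3, SKOV3 with PAE, untreated SKOV3/DDP and SKOV3/DDP with PAE. SKOV3 is an established human epithelial ovarian cancer line labelled cisplatin-sensitive, and SKOV3/DDP is a cisplatin-resistant line which, per the study's methods, was derived from it and is stably chemoresistant. PAE is a phenolic compound from peony root that the study gave to both lines, and the labels state neither its dose nor the time of exposure. Each line is 1 cell population, so a difference between the lines is a difference between these populations. The labels do not settle whether the 3 libraries of a group came from separate cultures, so p-values measure only the spread between these samples.

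Pyrimidine nucleotides are made from small precursors or salvaged from nucleosides. In the de novo route, CAD carries out the first steps within 1 protein, DHODH oxidizes dihydroorotate at the inner mitochondrial membrane, UMPS makes UMP from orotate, and CTPS1 turns UTP into CTP. Ribonucleotide reductase, built from the large subunit RRM1 and the radical-bearing small subunit RRM2, converts ribonucleotides to deoxynucleotides. TYMS methylates dUMP to dTMP, DUT breaks down dUTP and so supplies dUMP while keeping uracil out of DNA, and TK1 salvages thymidine. Several of these genes, RRM2, TK1 and TYMS among them, are known to be transcribed mostly in proliferating cells around S phase. CAD is a known transcriptional target of MYC.

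Total counts ranged from 14610008 to 18263479 per library. The 3 untreated SKOV3 libraries stood apart from the other 9. Over 10250 genes, the deviation of a gene from its mean over the libraries rose with its GC content in them (Spearman's rho 0.762 to 0.796; it is taken over genes, which are no independent replicates), whereas it fell in the other 9 (rho −0.688 to −0.46). The deviations of a gene sum to 0 over the 12 libraries, so a rise in 3 of them forces a fall on average in the rest. The values thus show a difference between the 2 sets and not a GC trend of the other 9 on their own. The untreated SKOV3 libraries also held a count for 17951 to 18240 genes, against 21469 to 23194 elsewhere, and took scaling factors of 0.6437 to 0.6744, against 0.9747 to 1.233. Every comparison with untreated SKOV3 rests on these libraries, and its values are given below as fitted and again after each library's own smooth dependence on GC and length (below, the GC and length trend) was removed. The comparison of the lines under PAE and the effect of PAE in SKOV3/DDP set other groups against each other, but they come from the fit of all 12 libraries, so the untreated SKOV3 libraries enter its filter, scaling and estimate of the spread. Both were also fitted from their own 6 libraries alone. Of the 10 markers of ovarian and epithelial carcinoma, all had counts except WT1, which was at 0 in untreated SKOV3. Their summed level was 8429 to 9164 CPM in SKOV3, 2664 to 3593 with PAE, 10767 to 12944 in SKOV3/DDP and 2381 to 3380 with PAE. Within the list, the untreated lines differed in both directions. EPCAM averaged 1.26 CPM in SKOV3 and 289 in SKOV3/DDP, KRT19 7.66 and 1349, and CDH1 7.63 and 442. KRT8 and KRT18 were also higher in SKOV3/DDP. KRT7 averaged 3607 CPM in SKOV3 and 1.22 in SKOV3/DDP, and PAX8 29.7 and 4.13. MUC16 and ERBB2 were also lower in SKOV3/DDP. The 4 leukocyte markers summed to at most 0.526 CPM in any library. The 4 fibroblast markers summed to 10.9 to 14.7 CPM in SKOV3, 7.89 to 14.7 with PAE, 3.58 to 4.65 in SKOV3/DDP and 0.22 to 0.564 with PAE, with DCN, LUM and PDGFRA at 0 counts in both SKOV3/DDP groups. The 3 endothelial markers summed to 3.22 to 5.45, 5.37 to 10.6, 1.33 to 2.19 and 0.343 to 0.658 CPM in the same order, with CDH5 at 0 in every library. The part of these levels in the results was not tested.

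In GRCh38 coordinates of the deposited tables, CAD (Gene ID 790) lies on chromosome 2 from 27217369 to 27243943, DHODH (1723) on chromosome 16 from 72008744 to 72027659, UMPS (7372) on chromosome 3 from 124730442 to 124749273, and CTPS1 (1503) on chromosome 1 from 40979696 to 41012565. TYMS (7298) lies on chromosome 18 from 657653 to 673578, RRM1 (6240) on chromosome 11 from 4094685 to 4138932, and RRM2 (6241) on chromosome 2 from 10122568 to 10211010. DUT (1854) lies on chromosome 15 from 48329991 to 48343373, all of these on the plus strand, and TK1 (7083) lies on the minus strand of chromosome 17 from 78174079 to 78187204. Counts are per whole gene and do not separate exons, untranslated regions or isoforms. The longest annotated transcript had a GC content of 62.8% for TK1, 57.7% for CAD, 53.1% for DHODH and 49.8% for TYMS, all above the median of 49.0% over the genes tested. UMPS (48.1%), RRM2 (45.8%), DUT (44.2%), RRM1 (43.5%) and CTPS1 (43.2%) were below it.

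Since several of the 9 genes are known for S-phase transcription, the 250 bases before each annotated start were searched on both strands for an E-box bound by MYC (CACGTG), for 4 spellings of an E2F site (TTTCCCGC, TTTGGCGC, TTTCGCGC and TTTGCCGC), for the CCAAT box and for the SP1 box (GGGCGG). All 9 genes matched the RefSeq promoter table (GRCh38.p14). The CCAAT box occurred in 32.0% of the 35116 promoters of that table, the SP1 box in 42.6%, the E-box in 6.34% and an E2F spelling in 2.79%. The RRM2 promoter held 3 CCAAT boxes, with first bases 123, 93 and 66 bases before the start. The runs of 30 bases around them are shown because they are near copies of each other, with the box in capitals, in the order chr2:10122604-10122633, chr2:10122634-10122663 and chr2:10122661-10122690, plus strand.
RRM2 first box: ggcaaggcgcagCCAATgggaagggtcgga
RRM2 middle box: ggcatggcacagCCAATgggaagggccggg
RRM2 last box: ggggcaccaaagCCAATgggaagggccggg
These 3 runs share 15 bases, agCCAATgggaaggg. The deposited RRM2 gene starts upstream of the RefSeq start, so these boxes lie inside the gene as counted.

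The partner subunit, RRM1, held 1 CCAAT box 28 bases before its start (chr11:4094645-4094674, plus strand), shown for comparison with RRM2. TYMS was the only one of the 9 with an E2F spelling, at 39 bases (chr18:657603-657632, plus strand, where the reverse complement is read). DHODH was the only one with the E-box, at 159 bases (chr16:72008573-72008602, plus strand), and it also held a CCAAT box at 22 bases. The motif is in capitals.
RRM1 CCAAT box: gcatgtccatatCCAATggggcccatggga
TYMS E2F spelling: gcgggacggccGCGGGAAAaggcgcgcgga
DHODH E-box: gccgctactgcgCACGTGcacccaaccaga
DHODH CCAAT box: ccaccatctcctCCAATggaagggagacag
CAD held 1 CCAAT box, at the far end of its window, and 2 SP1 boxes. SP1 boxes numbered 4 in CTPS1, 3 in DHODH (2 of them overlapping), 2 in TK1 and 1 in RRM1. UMPS and DUT held none of the motifs, and CAD held no E-box in this window. The DUT window (48330845 to 48331094) lies inside the deposited gene, which starts upstream at 48329991. The bases before that deposited start were not searched. These matches are descriptions of letters, and no match says only that the letters are not in the window.

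Levels are given as CPM, the counts scaled to a common library total, with TMM-scaled library sizes, per library in replicate order. The GC and length trend was not removed from them. For some enzymes the direction against untreated SKOV3 changed with its removal, as given below. CAD, the first enzyme of the de novo route, measured 233, 212 and 252 CPM in untreated SKOV3, a mean of 232 ± 20.3 (SD, n = 3). With PAE it measured 57.0, 86.6 and 76.8 CPM in SKOV3 (73.5 ± 15.1). It measured 86.0, 63.1 and 69.2 CPM in SKOV3/DDP (72.7 ± 11.9) and 53.8, 49.0 and 79.1 with PAE (60.6 ± 16.1). Untreated SKOV3 lay above every other library, and the other 3 groups overlapped.

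DHODH was also highest in untreated SKOV3. It measured 32.3, 42.5 and 36.1 CPM in SKOV3 (37.0 ± 5.18) and 9.64, 14.8 and 14.3 with PAE (12.9 ± 2.84). SKOV3/DDP had 5.31, 3.98 and 5.26 CPM (4.85 ± 0.755), and 4.86, 3.24 and 3.63 with PAE (3.91 ± 0.842). The groups separated except for the 2 of SKOV3/DDP, which overlapped at 63 to 99 counts per library.

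UMPS, the last step to UMP, was lowest in untreated SKOV3, at 4.97, 4.18 and 6.86 CPM (5.34 ± 1.38; 49 to 81 counts), and highest in SKOV3 with PAE, at 25.7, 31.2 and 42.4 CPM (33.1 ± 8.50). SKOV3/DDP lay between, at 25.5, 15.7 and 23.4 CPM (21.5 ± 5.21), and at 20.5, 19.9 and 26.4 CPM with PAE (22.2 ± 3.58). Untreated SKOV3 did not overlap any other group, and SKOV3 with PAE overlapped SKOV3/DDP with PAE.

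CTPS1 was higher in both SKOV3 groups than in both SKOV3/DDP groups. It measured 56.1, 34.1 and 36.7 CPM in SKOV3 (42.3 ± 12.05) and 61.4, 84.9 and 66.9 with PAE (71.0 ± 12.3). SKOV3/DDP measured 20.1, 15.6 and 18.6 CPM (18.1 ± 2.28) and 17.3, 15.2 and 19.6 with PAE (17.4 ± 2.23). The libraries of the lines did not overlap, and within SKOV3/DDP they did.

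The subunits of ribonucleotide reductase were lowest in untreated SKOV3 or in SKOV3/DDP with PAE and highest in SKOV3 with PAE. RRM1 measured 37.8, 24.5 and 25.3 CPM in SKOV3 (29.2 ± 7.42), 208, 183 and 294 with PAE (229 ± 58.0), 76.6, 42.5 and 54.97 in SKOV3/DDP (58.0 ± 17.3) and 35.4, 22.6 and 55.8 with PAE (37.9 ± 16.8). SKOV3 with PAE stood alone, and the SKOV3/DDP group with PAE overlapped both untreated groups. RRM2 measured 80.3, 42.4 and 58.3 CPM in SKOV3 (60.4 ± 19.0) and 354, 295 and 340 with PAE (330 ± 30.6). In SKOV3/DDP it measured 134, 108 and 97.4 CPM (113 ± 18.8), and 39.4, 38.6 and 47.0 with PAE (41.7 ± 4.61). Every SKOV3/DDP library with PAE was below every untreated SKOV3/DDP library, and it overlapped untreated SKOV3.

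The thymidylate genes and DUT were lower in SKOV3/DDP. TYMS measured 39.4, 33.3 and 39.1 CPM in SKOV3 (37.3 ± 3.41), 33.6, 43.8 and 39.99 with PAE (39.1 ± 5.18), 8.02, 4.798 and 5.88 in SKOV3/DDP (6.23 ± 1.64) and 6.13, 4.75 and 6.77 with PAE (5.88 ± 1.03). It overlapped within each line and not between the lines. TK1 measured 578, 602 and 539 CPM in SKOV3 (573 ± 32.2) and 93.5, 96.8 and 125 with PAE (105 ± 17.2). In SKOV3/DDP it measured 52.9, 34.7 and 54.8 CPM (47.5 ± 11.1), and 32.5, 22.0 and 20.5 with PAE (25.0 ± 6.55), so that none of its 4 groups overlapped. DUT measured 162, 207 and 180 CPM in SKOV3 (183 ± 22.4), 117, 122 and 130 with PAE (123 ± 6.09), 38.9, 27.8 and 37.3 in SKOV3/DDP (34.7 ± 6.02) and 29.04, 26.3 and 28.8 with PAE (28.04 ± 1.54). Its SKOV3/DDP groups overlapped and its other groups did not.

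**Figure D1:**
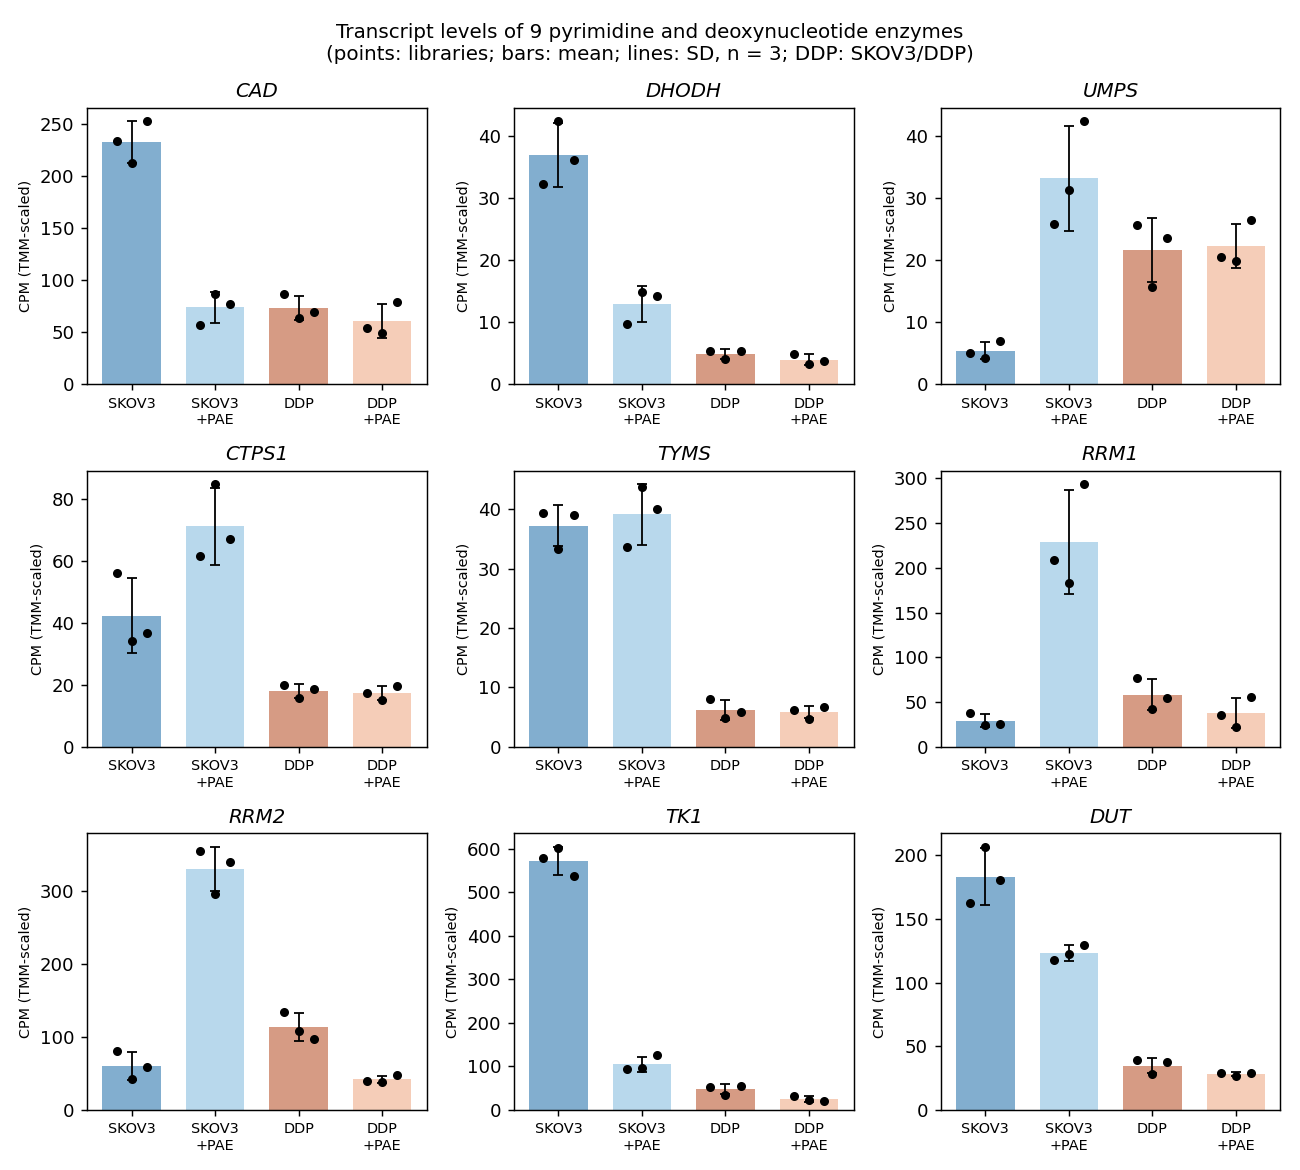
Each panel plots 1 enzyme, with the 4 groups on the horizontal axis and TMM-scaled CPM from 0 on the vertical axis; points are libraries, bars are means and lines are SD (n = 3, DDP stands for SKOV3/DDP). RRM1 and RRM2 peak in SKOV3 with PAE at means of 229 and 330 CPM, TK1 peaks in untreated SKOV3 at 573 CPM, and the TYMS libraries of the lines do not overlap, at 33.3 to 43.8 CPM in SKOV3 and 4.75 to 8.02 in SKOV3/DDP. The GC and length trend is not removed from these levels.

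Set against gene length, and without removal of the GC and length trend, TK1 took the largest share of the 9 transcripts in untreated SKOV3. On the scale of CPM per kilobase, the 9 summed to 470 ± 17.3 in SKOV3, of which TK1 made up 72.0% ± 1.66 (SD, n = 3). With PAE the SKOV3 sum was 280 ± 30.6, and TK1 (22.1% ± 1.20), RRM1 (22.6% ± 3.27) and RRM2 (26.1% ± 3.17) held the largest shares, with RRM2 above TK1 in each of the 3 libraries and RRM2 above RRM1 in 2 of them. The sum was 98.0 ± 17.96 CPM per kilobase in SKOV3/DDP and 59.7 ± 9.21 with PAE, with TK1 at 28.5% ± 3.87 and 25.0% ± 6.50. TK1 is the most GC-rich of the 9 (62.8%). Its log2 fold change with PAE in SKOV3 was −2.45 as fitted and 0.58 with the trend removed. The part of that trend in these shares and sums was not tested. The ratio of RRM2 to RRM1, each per kilobase, was 1.62 ± 0.231 in SKOV3, 1.18 ± 0.230 in SKOV3 with PAE, 1.60 ± 0.361 in SKOV3/DDP and 0.966 ± 0.352 in SKOV3/DDP with PAE. In both lines the mean ratio was lower with PAE, but the lowest untreated SKOV3/DDP ratio was 1.38 and the highest with PAE 1.35, and the difference was not tested.

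Whether the resistant line differs from SKOV3 in these enzymes was read first where both lines had received PAE, since neither of its groups is untreated SKOV3. Of the 9 enzymes, 7 were lower in SKOV3/DDP in edgeR (quasi-likelihood test, adjusted by Benjamini-Hochberg over 17133 genes), against 27.1% of all genes called lower. None was called higher, against 27.5% of all genes, and none was higher at an unadjusted p under 0.05 or by DESeq2 or limma-voom. The median log2 fold change was −2.07 for the 9 and 0.06 for all genes tested. The same 7 did not overlap between the groups, which held for 61.2% of all genes tested.

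RRM2 showed the largest difference, with a log2 fold change of −2.98 ± 0.25 (SE, adjusted p = 1.37e-07). TYMS was lower by −2.73 ± 0.25 (adjusted p = 3.55e-07), RRM1 by −2.59 ± 0.34 (adjusted p = 1.37e-05) and DUT by −2.13 ± 0.20 (adjusted p = 4.00e-07). TK1 was lower by −2.07 ± 0.24 (adjusted p = 4.84e-06), CTPS1 by −2.03 ± 0.24 (adjusted p = 4.81e-06) and DHODH by −1.72 ± 0.27 (adjusted p = 6.87e-05). These 7 calls held in all 16 alternatives run, and removing the GC and length trend moved them by at most 0.17. CAD did not pass the test (−0.28, 95% interval −0.73 to 0.17, adjusted p = 0.328). UMPS was at −0.58 (95% interval −1.10 to −0.05) with an adjusted p of 0.0832, and it passed in 4 of the 16 alternatives. These were the fit of the 6 libraries alone (−0.65, adjusted p = 0.0372) and the fit without SKOV3_PAE replicate 1 (−0.74, adjusted p = 0.0476). UMPS also passed with the GC and length trend removed, without the replicate block (−0.67, adjusted p = 0.0305) and with it (−0.64, adjusted p = 0.0318). With the trend removed and no block, 8 of the 9 were thus called lower.

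The other genes of the pathway and the genes of S phase also fell mostly on the lower side in that comparison. Of 34 other genes of pyrimidine and deoxynucleotide metabolism, 32 were tested, and 20 were lower and 4 higher in SKOV3/DDP with PAE (median −0.96). TYMP, which cleaves thymidine, averaged 0.387 CPM against 41.4 in SKOV3 with PAE (log2 fold change −6.72 ± 0.47, adjusted p = 2.12e-08). CDA, which deaminates cytidine, averaged 3.79 against 146 CPM (−5.26 ± 0.31, adjusted p = 4.89e-09). DPYD, the first enzyme of pyrimidine breakdown, had no counts in any of the 3 SKOV3/DDP libraries with PAE and 2500 counts in the 3 of SKOV3 with PAE, which is at least 892-fold lower when taken against 3 counts over the group. Of 20 S-phase genes, 17 were lower and 0 higher (median −1.93; none was higher at an unadjusted p under 0.05 or by DESeq2 or limma-voom), led by the transcription factor E2F2 (−3.72 ± 0.61, adjusted p = 0.000127), the helicase subunit MCM2 (−3.72 ± 0.44, adjusted p = 5.12e-06) and GINS2 (−3.25 ± 0.28, adjusted p = 1.59e-07). E2F2 held only 5, 3 and 4 counts in the SKOV3/DDP libraries with PAE. MYC itself averaged 24.4 CPM against 70.9 (−1.54, adjusted p = 0.00154). The part of cell cycling in the difference of the 7 enzymes was not tested. In bulk libraries, fewer cells in S phase and less RNA per cell cannot be told apart.

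**Figure D2:**
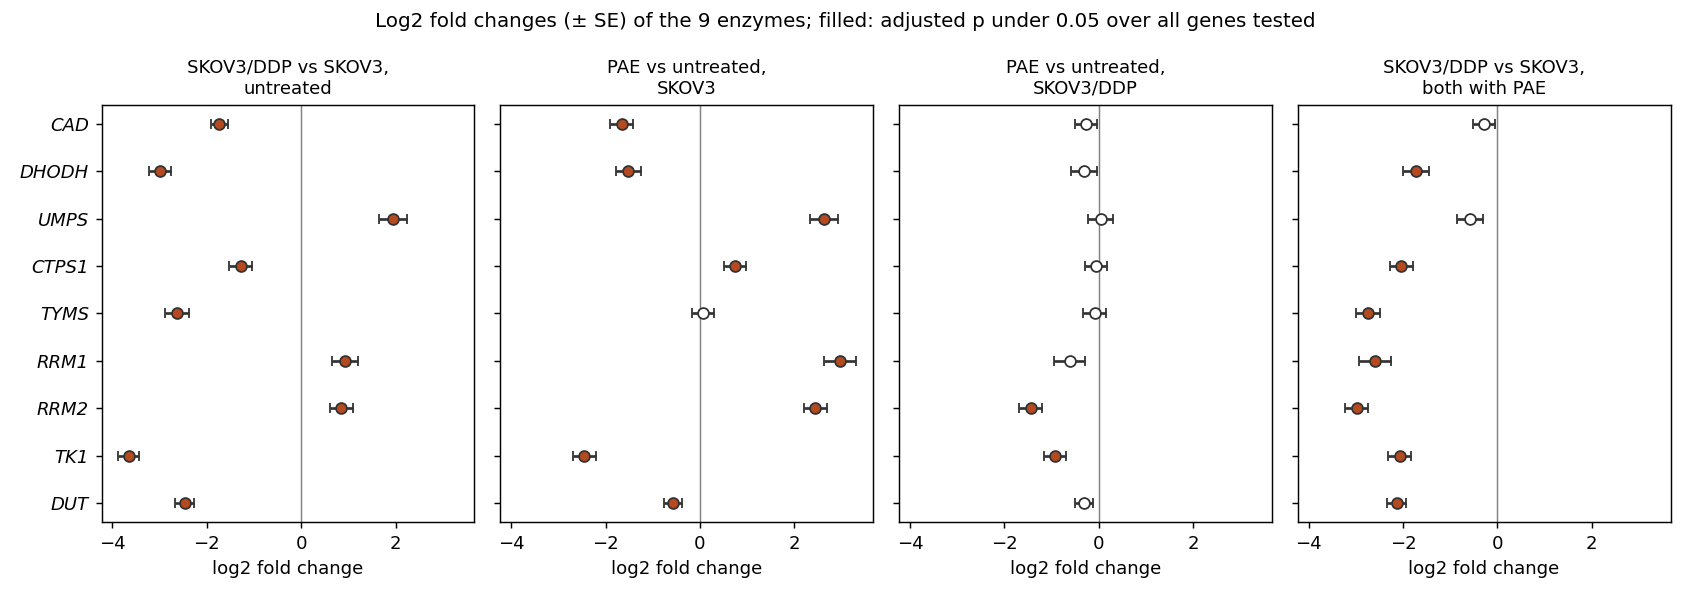
Log2 fold changes (horizontal axes, points, with SE as lines) of the 9 enzymes in the comparison of the untreated lines, PAE in SKOV3, PAE in SKOV3/DDP and the lines under PAE; filled points have an adjusted p under 0.05. PAE in SKOV3/DDP has 2 filled points, RRM2 at −1.44 and TK1 at −0.92, and the lines under PAE have 7, from −1.72 for DHODH to −2.98 for RRM2.

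Between the untreated lines, all 9 enzymes were called, 6 lower and 3 higher in SKOV3/DDP, and all 9 did not overlap between the groups, which held for 86.5% of all genes tested. Over the 15323 genes of that fit, 38.5% were called lower and 46.1% higher, and the median over all genes was 0.41 (1.16 when scaled by library size only) against −1.74 for the 9. Scaled by library size only, 5 were lower and 3 higher. As fitted, TK1 was lower by −3.66 ± 0.22 (adjusted p = 1.75e-06), DHODH by −2.99 ± 0.24 (adjusted p = 7.15e-06), TYMS by −2.64 ± 0.25 (adjusted p = 1.84e-05), DUT by −2.46 ± 0.20 (adjusted p = 7.96e-06), CAD by −1.74 ± 0.18 (adjusted p = 2.49e-05) and CTPS1 by −1.28 ± 0.24 (adjusted p = 0.0011, or 0.0941 when scaled by library size only). After removal of the GC and length trend all 6 were still lower and called, by −0.87 for TK1, −2.53 for DHODH, −2.09 for TYMS, −4.30 for DUT, −0.61 for CAD and −3.35 for CTPS1.

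UMPS was higher in untreated SKOV3/DDP by 1.95 ± 0.30 (adjusted p = 0.000285), and by 0.88 after that removal (adjusted p = 0.0203). RRM1 and RRM2 were higher as fitted, by 0.93 ± 0.27 (adjusted p = 0.0115) and 0.85 ± 0.25 (adjusted p = 0.0113), but lower and called once the trend was removed, by −0.83 (adjusted p = 0.0152) and −0.55 (adjusted p = 0.0219). Without replicate 3 of SKOV3, RRM1 was at 0.83 with an adjusted p of 0.0534. The study's methods ask for a log2 fold change beyond 2 in size and a p under 0.05, without saying whether the p is adjusted. With the unadjusted p, 4 of the 9 were called, all lower (DHODH, TYMS, TK1 and DUT). Of all genes, 57.4% were called under these criteria, counted over both directions together. None of the 9 was higher under those criteria, while edgeR at an unadjusted p under 0.05, DESeq2 and limma-voom each put 3 higher.

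Of the 32 other pathway genes tested between the untreated lines, 23 were lower and 6 higher (18 and 4 after removal of the trend, 17 and 8 when scaled by library size only). TYMP averaged 0.582 CPM in SKOV3/DDP against 259 in SKOV3 (−8.83 ± 0.44, adjusted p = 9.51e-07, and −6.32 after removal of the trend). DPYD had 1 count in the 3 SKOV3/DDP libraries and 217 in the 3 of SKOV3, 309-fold lower, with a counting interval (95%) that runs from 54.8 to 12248. That interval leaves out the spread between libraries, which held 101, 35 and 81 counts in SKOV3. In edgeR DPYD was at −7.80, and at −10.30 after removal of the trend, called in both. RRM2B, the p53-induced small subunit of ribonucleotide reductase, averaged 157 CPM in SKOV3/DDP against 3.83 in SKOV3 (5.29 ± 0.23, adjusted p = 7.98e-07; 2.398 after removal of the trend). It was also called higher between the lines under PAE, by 2.69. Among the 20 S-phase genes, 11 were lower and 7 higher, and 12 and 0 after removal of the trend, where edgeR also put 0 higher at an unadjusted p under 0.05, while DESeq2 without that removal put 7 higher. E2F1 (−5.84 ± 0.28, adjusted p = 9.07e-07), E2F2 (−5.31 ± 0.72, adjusted p = 0.000147) and MCM2 (−5.14 ± 0.37, adjusted p = 4.23e-06) showed the largest differences. With the trend removed they were at −3.52, −4.42 and −3.45, and each was still called. E2F2 held only 7, 1 and 0 counts in the SKOV3/DDP libraries. MYC averaged 28.6 CPM against 57.3 (−1.06, adjusted p = 0.00814; −0.27 and not called after removal of the trend).

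In SKOV3/DDP, 2 of the 9 enzymes were lower with PAE, against 14.7% of all genes. None was higher, against 11.8% of all genes, also at an unadjusted p under 0.05 and by DESeq2 and limma-voom. RRM2 fell by 1.44 ± 0.24 on the log2 scale (adjusted p = 0.000724), and by 1.48 after removal of the trend, and was called in all 16 alternatives (−1.46, adjusted p = 0.00118, with the 6 libraries alone). TK1 fell by 0.92 ± 0.24 (adjusted p = 0.011). It was called in 11 of 16 alternatives. With the trend removed it was at −0.63 (adjusted p = 0.0566), and it also missed the threshold without SKOV3/DDP replicate 1 (−0.80), SKOV3/DDP replicate 3 (−0.78), SKOV3/DDP_PAE replicate 2 (−0.80) or SKOV3/DDP_PAE replicate 3 (−0.76).

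The other 7 did not pass the test and overlapped between the groups, where 45.1% of all genes did not overlap. RRM1 was at −0.61 (95% interval −1.24 to 0.02, adjusted p = 0.174), and it passed when SKOV3/DDP_PAE replicate 3, the highest library of its group, was left out (−0.96, adjusted p = 0.0486). DHODH was at −0.31 (−0.83 to 0.21), DUT at −0.31 (−0.68 to 0.07) and CAD at −0.26 (−0.72 to 0.19). TYMS was at −0.09 (−0.56 to 0.39), CTPS1 at −0.06 (−0.52 to 0.40) and UMPS at 0.04 (−0.48 to 0.57). For each of these enzymes a change of a size within its interval is not excluded.

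Beyond the 9, 10 of the 32 pathway genes were lower and 4 higher with PAE in SKOV3/DDP (6 and 5 when scaled by library size only, which moved the median of all genes from 0 to 0.16). The mitochondrial nucleotide kinase CMPK2 fell by 2.11 (adjusted p = 0.000835), from 9.48 to 2.19 CPM, and the nucleoside transporter SLC29A2 fell by 1.72 (adjusted p = 0.000389), from 10.98 to 3.33 CPM. SLC25A33, a mitochondrial pyrimidine nucleotide carrier, rose by 1.56 ± 0.23 (adjusted p = 0.000387), from 16.8 to 49.7 CPM. Of the 20 S-phase genes, 3 were lower and 1 higher (1 and 4 when scaled by library size only), with a median of 0.04. MKI67, a marker of cycling cells, fell by 1.54 (adjusted p = 0.014), cyclin A2 (CCNA2) fell by 1.07 (adjusted p = 0.0334), and cyclin E2 (CCNE2) rose by 1.77 ± 0.45 (adjusted p = 0.0101). MYC did not pass the test (−0.23, adjusted p = 0.657).

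**Figure D3:**
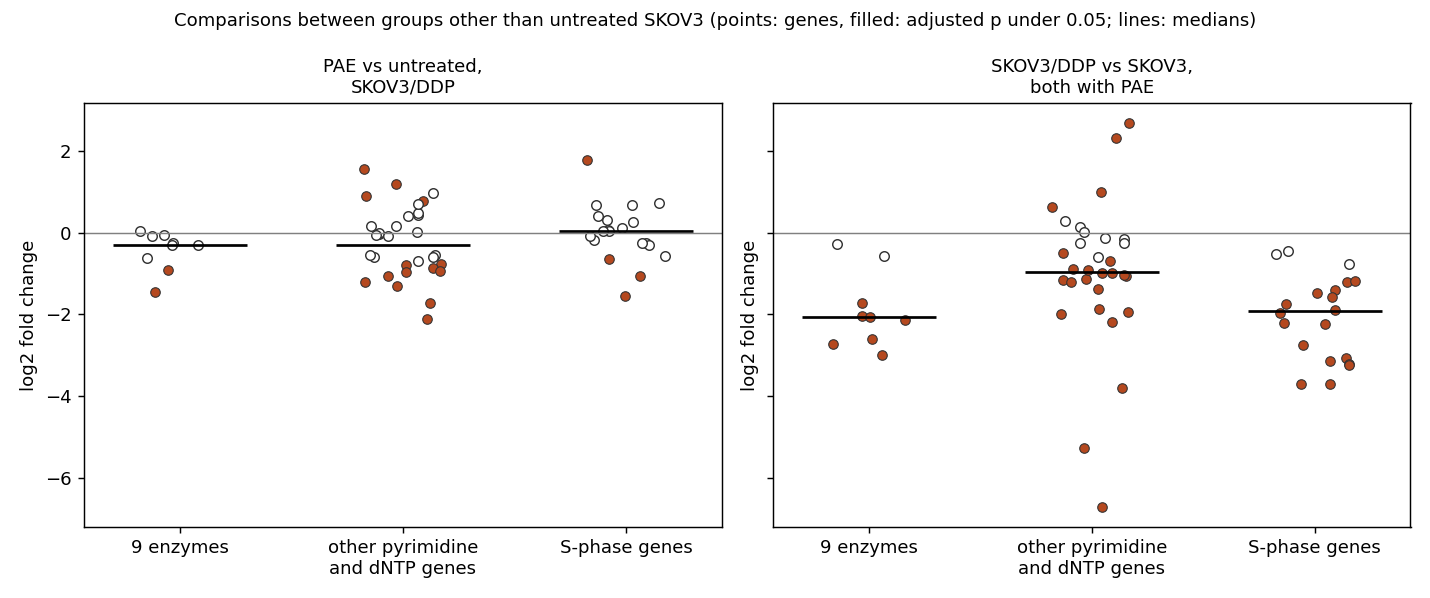
Log2 fold changes (vertical axes) with PAE in SKOV3/DDP and between the lines under PAE, for the 9 enzymes, the other pathway genes and the S-phase genes; each point is a gene, filled points have an adjusted p under 0.05 and lines are medians. DPYD, with at most 1 count in the SKOV3/DDP libraries, is in the medians but not drawn. Between the lines under PAE the medians of the 9 and of the S-phase genes lie at −2.07 and −1.93, and with PAE in SKOV3/DDP at −0.31 and 0.04.

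In SKOV3, 8 of the 9 enzymes were called with PAE, 4 higher and 4 lower, against 42.6% and 32.7% of the 17133 genes (5 higher and 2 lower when scaled by library size only), and the same 8 did not overlap between the groups, which held for 77.4% of all genes. The median over all genes was 0.48 as fitted and 1.36 when scaled by library size only, so these values are relative to that shift. RRM1 was higher by 2.97 ± 0.34 (adjusted p = 1.35e-06), UMPS by 2.63 ± 0.29 (adjusted p = 8.54e-07) and RRM2 by 2.45 ± 0.24 (adjusted p = 2.76e-07). After removal of the GC and length trend these 3 were still higher and called, by 0.91, 1.51 and 0.89. DHODH was lower by −1.52 ± 0.26 (adjusted p = 7.14e-05), and by −1.09 after that removal, but at −0.63 it missed the threshold when scaled by library size only (adjusted p = 0.0516).

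For the other enzymes the direction or call in SKOV3 depended on the processing. TK1 was at −2.45 ± 0.25 (adjusted p = 2.98e-07) as fitted and at 0.58 (adjusted p = 0.0511) with the trend removed. CTPS1 was at 0.75 ± 0.23 (adjusted p = 0.00853) as fitted and at −1.51 (adjusted p = 4.05e-05) with the trend removed. DUT was at −0.57 ± 0.19 (adjusted p = 0.013) as fitted, at −2.63 with the trend removed and at 0.31 when scaled by library size only. CAD was at −1.66 ± 0.24 (adjusted p = 1.16e-05) as fitted and at −0.33 (adjusted p = 0.158) with the trend removed. TYMS did not pass the test (0.07, 95% interval −0.39 to 0.53, adjusted p = 0.799), but it was at 0.96 and called when scaled by library size only (adjusted p = 0.00281). CTPS1 missed the threshold by DESeq2 (0.50, adjusted p = 0.052), and DUT with no filter on low counts (−0.51, adjusted p = 0.0983).

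**Figure D4:**
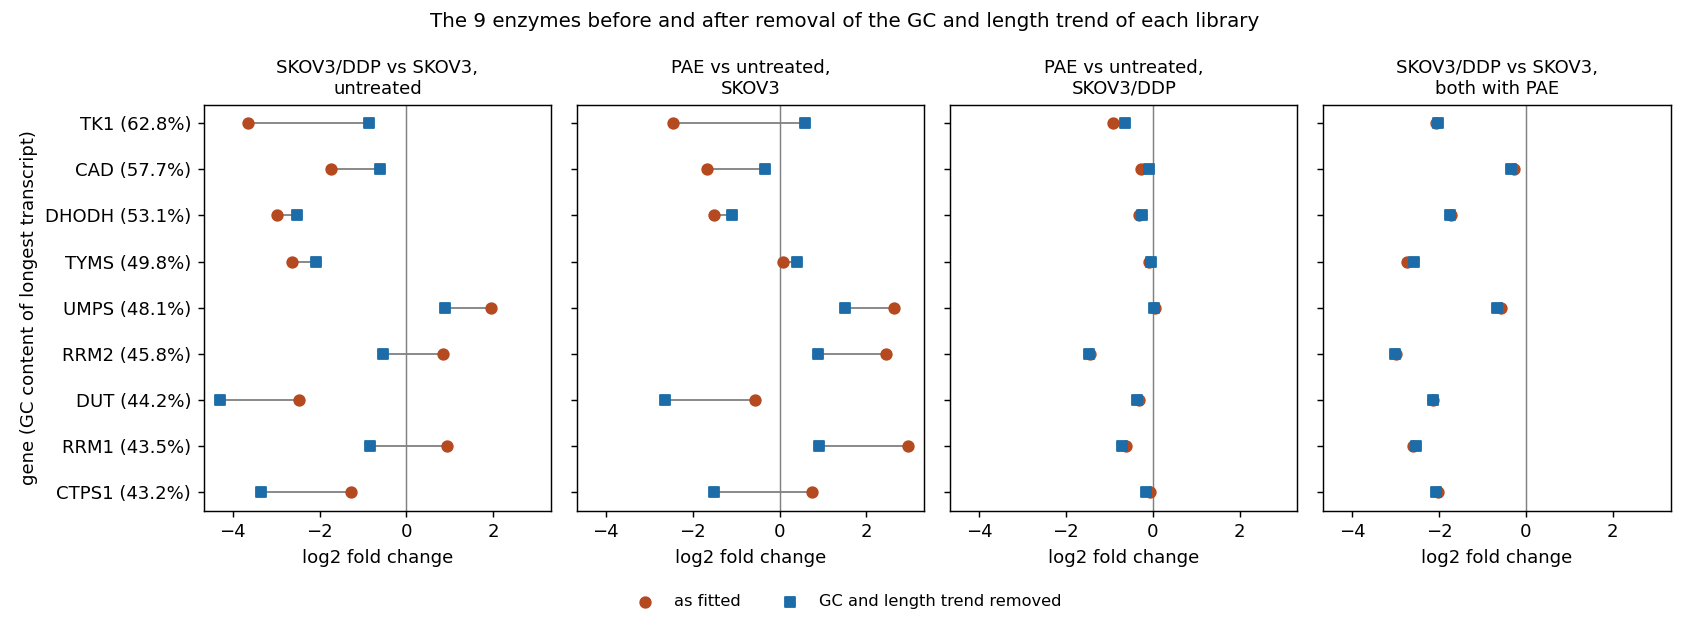
Log2 fold changes (horizontal axes) of the 9 enzymes as fitted (circles) and after removal of the GC and length trend of each library (squares), ordered by the GC content of the longest transcript, in 4 comparisons. TK1, the most GC-rich at 62.8%, moves from −2.45 to 0.58 with PAE in SKOV3, and CTPS1, the least at 43.2%, from 0.75 to −1.51, while both symbols lie close together in the 2 comparisons at the right.

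Of the other pathway genes, 18 were lower and 11 higher with PAE in SKOV3, 7 and 6 after removal of the trend, and 14 and 14 when scaled by library size only. The pyrimidine nucleotide carrier SLC25A36 was higher by 3.997 ± 0.27 (adjusted p = 1.41e-08), the deoxycytidine kinase DCK by 3.63 ± 0.31 (adjusted p = 7.04e-08) and the nucleotidase NT5C3A by 3.56 ± 0.32 (adjusted p = 9.34e-08). With the trend removed they were higher by 0.75, 1.07 and 1.09, and all 3 were still called. Of the S-phase genes, 10 were higher and 7 lower, 12 and 5 when scaled by library size only, and 7 and 0 with the trend removed, where edgeR also put 0 lower at an unadjusted p under 0.05 (DESeq2 without that removal put 8 lower). CCNE2 was higher by 4.16 ± 0.54, RFC3 by 3.60 ± 0.31 and POLA1 by 3.32 ± 0.44 (adjusted p = 3.95e-06, 6.27e-08 and 5.30e-06), and by 1.13, 0.34 and 0.84 with the trend removed, where only POLA1 of the 3 was called. CCNE2 held only 7, 5 and 3 counts in the untreated SKOV3 libraries. MYC was at 0.31 (adjusted p = 0.421), and at 1.07 with the trend removed (adjusted p = 0.0148).

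Whether PAE acted alike in both lines was tested by the interaction term, the effect in SKOV3/DDP minus that in SKOV3. It was called for 7 of the 9 enzymes, for 4 lower and for 3 higher, against 37.4% and 25.5% of all genes (5 lower and 0 higher when scaled by library size only, with 1 higher at an unadjusted p under 0.05). The median over all genes was −0.62 as fitted and −1.30 when scaled by library size only. The term was −3.89 ± 0.34 for RRM2 (adjusted p = 3.94e-07), −3.58 ± 0.47 for RRM1 (adjusted p = 9.57e-06) and −2.59 ± 0.39 for UMPS (adjusted p = 3.88e-05). With the trend removed it was −2.37, −1.61 and −1.49, and all 3 calls held in all 21 alternatives run. For TK1 it was 1.52 ± 0.33 as fitted and −1.21 with the trend removed, and for CTPS1 −0.81 ± 0.33 and 1.36. CAD (1.40 ± 0.33) and DHODH (1.21 ± 0.37) were called as fitted but not with the trend removed (0.24 and 0.84). TYMS (−0.16) and DUT (0.27) were not called, but DUT was called with the trend removed (2.27) and TYMS when scaled by library size only (−0.89, adjusted p = 0.0435). That scaling ended the calls of CAD (0.67), DHODH (0.48) and TK1 (0.79). The call of CTPS1 was also lost by DESeq2 (−0.55, adjusted p = 0.155) and with no filter (−0.84, adjusted p = 0.0752). It was lost too when any 1 of 8 libraries was left out (replicates 2 and 3 of SKOV3 and of SKOV3_PAE, 1 and 3 of SKOV3/DDP, 1 and 2 of SKOV3/DDP_PAE), with adjusted p from 0.0597 to 0.118.

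In the same test, 14 of the 32 pathway genes were higher and 9 lower, 7 and 7 with the trend removed, and 11 and 11 when scaled by library size only. UCK1, a uridine-cytidine kinase, was at 3.26 ± 0.28, DCK at −3.47 ± 0.41 and the UMP-CMP kinase CMPK1 at −3.44 ± 0.29 (adjusted p = 3.42e-07, 3.94e-06 and 3.47e-07). With the trend removed they were at 1.52, −1.09 and −0.72, and each was still called. Of the S-phase genes, 7 were higher and 9 lower as fitted, 3 and 11 when scaled by library size only, and 0 and 3 with the trend removed, where edgeR put 0 higher and 6 lower at an unadjusted p under 0.05 (DESeq2 without that removal put 7 higher). MKI67 was at −3.72 ± 0.59, CCNA2 at −3.48 ± 0.50 and POLA1 at −3.41 ± 0.58 (adjusted p = 6.14e-05, 2.38e-05 and 0.000113). With the trend removed they were at −2.57, −1.46 and −1.02, and POLA1 was no longer called (adjusted p = 0.0706).

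Some reads of these genes could belong to neighbours, since the strand that was counted is not given in the sources used here. ENOSF1, on the opposite strand, overlaps the 3′ end of TYMS and averaged 17.6 CPM over the 12 libraries against 22.1 for TYMS. It averaged 6.32 CPM in SKOV3 and 15.96 in SKOV3/DDP, the opposite order to TYMS. TYMSOS, also on the opposite strand, overlaps the 5′ end of TYMS and averaged 5.34 CPM. Like TYMS, TYMSOS was lower in SKOV3/DDP, at 5.15 CPM against 9.35 in SKOV3 without PAE and 2.45 against 4.39 with it. AFMID overlaps the 5′ end of TK1 on the opposite strand at 31.8 CPM against 188 for TK1. Like TK1, AFMID was highest in untreated SKOV3. With PAE it averaged 16.9 CPM in SKOV3/DDP against 24.6 in SKOV3, also the order of TK1. The part of shared reads in the differences of TYMS and TK1 was not tested. The named pseudogene copies held few counts over the 12 libraries: 13 for TYMSP2 against 4157 for TYMS, 10 for RRM2P2 and 3 for RRM2P3 against 28571 for RRM2, and 17 for DUTP1 against 16676 for DUT.

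The pairs of enzymes that followed each other most closely over the 12 libraries, by Pearson's r of log2(CPM + 1), were DHODH and TK1 (0.983), TYMS and DUT (0.970), DHODH and DUT (0.955) and CTPS1 and TYMS (0.938), and RRM1 and RRM2 had an r of 0.933. CAD and UMPS ran opposite (−0.817). Among 9590 protein-coding genes with a mean of at least 10 CPM, the pattern most like that of RRM2 was that of PDK3 (0.988), of RRM1 that of DEPDC1B (0.981) and of DUT that of CDKN2C (0.997). TK1 was most like PRDX2 (0.993), DHODH like DDX28 (0.994), CAD like POLDIP3 (0.991), CTPS1 like TICRR (0.987) and UMPS like C5orf15 (0.987). These values describe 12 libraries in 4 groups, which share the GC trend described above, and carry no test.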

How the data were processed

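Poly-A RNA of SKOV3 and SKOV3/DDP cells, with or without PAE, was sequenced from NEBNext Ultra libraries. The authors deposited raw whole-number counts per gene for each of 12 libraries, without normalization, for 46350 named genes with GRCh38 coordinates. A further 869 unnamed loci (0.126% to 0.678% of the counts) were left out of library sizes and tests. The submitters' processing notes list HISAT2 2.0.5, StringTie 1.3.3b, DESeq2 and edgeR without stating their roles. The counting program, the strand and the annotation release are not given in the sources used here. Of reads shared between overlapping genes, it is therefore not known to which gene they were assigned.

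Groups were taken from the labels. In R 4.3.3, counts were filtered with filterByExpr, scaled by TMM and tested with edgeR 4.0.16 (quasi-likelihood test, Benjamini-Hochberg adjustment over all genes tested, threshold 0.05). The comparison of the untreated lines used a fit of 6 libraries (15323 genes), and all other comparisons came from 1 fit of the 12 libraries (17133 genes). Each group enters more than 1 comparison, so the comparisons share libraries. SE is the absolute log2 fold change over √F, and 95% intervals of log2 fold changes are 1.96 SE to either side. The F test itself has wider tails with so few libraries, so these intervals are somewhat narrower than intervals drawn from it. CPM were TMM-scaled over 12 libraries. The total depth of 14610008 to 18263479 counts per library limits precision mainly for DHODH, UMPS and TYMS, which had under 100 counts in some libraries.

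For the removal of the GC and length trend, each library's deviation was fitted by splines (5 degrees of freedom each), using genes whose log2 CPM averaged 2 or more, and the fitted values entered the test as offsets. GC content was that of the longest GENCODE 29 transcript of the same symbol, available for 88.1% of the genes tested, so this fit covers fewer genes. The other alternatives were DESeq2 1.42.0, limma-voom (limma 3.58.1), scaling by library size, no filter, at least 10 counts in every library, fits of 6 libraries alone or of 12 together, pseudogene copies summed with their gene, a replicate block, and each library left out in turn. The tests were checked on simulated data in which a small set of genes changed and no GC trend was added. That check therefore does not cover the GC trend or the many changed genes of these data. The effect of PAE in SKOV3 was not among the comparisons checked. No 2 libraries were duplicates.

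The 9 genes, the gene lists, the comparisons and the rule for naming genes were chosen with earlier results of these data known. The rule names all 9 members, MYC, for each comparison the 3 called genes with the largest absolute log2 fold change in the pathway list and in the S-phase list, for each member the most similar protein-coding gene (that of TYMS is not reported here), and overlapping genes and pseudogene copies with counts. RRM2B under PAE was named after its values were seen.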

Additional observations from a re-analysis of the deposited data

Results flagged for a closer look

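For 7 enzymes the effect of PAE differed between the lines in a test of the difference itself, the interaction term of edgeR's fit, given as the log2 fold change in SKOV3/DDP minus that in SKOV3. Over all 17133 genes the term was called higher for 25.5% and lower for 37.4%. The difference was −3.89 for RRM2, which was higher with PAE in SKOV3 (2.45) and lower in SKOV3/DDP (−1.44). It was −3.58 for RRM1 (2.97 and −0.61) and −2.59 for UMPS (2.63 and 0.04). It was 1.52 for TK1 (−2.45 and −0.92), 1.40 for CAD (−1.66 and −0.26), 1.21 for DHODH (−1.52 and −0.31) and −0.81 for CTPS1 (0.75 and −0.06). Each of these differences includes the untreated SKOV3 libraries, which differed from the other 9 in their GC trend. With that trend removed, the difference for RRM2 was −2.37, for RRM1 −1.61 and for UMPS −1.49, each still called. The values for TK1 (−1.21) and CTPS1 (1.36) had the opposite sign and were called, and those for CAD (0.24) and DHODH (0.84) were not called. The call of CTPS1 was also lost by DESeq2 (−0.55), with no filter (−0.84) and in 8 fits that left out 1 library. The part of the GC trend in the remaining differences was not tested.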

How the results depend on the processing

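Of 765 values of single enzymes under an alternative, 697 kept their direction and their side of the threshold, 30 kept the direction but lost the call, 9 gained it and 29 changed sign. With the GC and length trend removed, without and with the replicate block, 1 enzyme was higher between the untreated lines in place of 3 (RRM1 −0.83 and −0.86, RRM2 −0.55 and −0.55). With PAE in SKOV3, CTPS1 was then at −1.51 and −1.51 and TK1 at 0.58 and 0.55, and for the difference between the lines CTPS1 was at 1.36 and 1.36 and TK1 at −1.21 and −1.15. Without the block, the removal also left 1 enzyme lower with PAE in SKOV3/DDP in place of 2. Scaled by library size only, 2 enzymes were lower with PAE in SKOV3 in place of 4 (DUT 0.31), 0 were higher in the difference between the lines in place of 3 (DUT −0.46), and with PAE in SKOV3/DDP CTPS1 was at 0.10 and TYMS at 0.07. TYMS was at −0.18 by DESeq2 and −0.03 with 6 libraries alone with PAE in SKOV3, and at 0.10 by DESeq2 for the difference. Leaving out each library in turn left 1 to 2 enzymes lower with PAE in SKOV3/DDP, and gave −0.14 to 0.22 for UMPS, −0.16 to 0.06 for CTPS1 and −0.24 to 0.17 for TYMS there. For TYMS it gave −0.01 to 0.18 with PAE in SKOV3 and −0.32 to 0.10 for the difference. In the groups that a removal leaves with 2 libraries, the spread was still pooled over all groups. The replicate numbers did not pair the samples (correlations of deviations −0.13 to 0.105 per pair), and the replicate block left 7 enzymes lower between the lines under PAE and moved 1 call, that of CTPS1 in the difference (−0.83, adjusted p = 0.0525). The cause of these changes was not tested. Depth limits DHODH, UMPS and TYMS most.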
